A study of Mus musculus with 4 samples.

Results

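Ribosomal protein genes were examined for RBPJ occupancy in mouse alveolar macrophages (AMs), the macrophages that live in the airspace of the lung. The genes were chosen by symbol: protein-coding genes named Rpl or Rps and a number, with Rplp0, Rplp1, Rplp2 and Rpsa. This gave 86 of 21755 protein-coding genes. Of these, 77 encode the core proteins of the cytosolic ribosome, 46 in the large (60S) subunit and 31 in the small (40S) subunit. A further 8 are paralogs or retrogene copies of core genes, and Rps19bp1 came in by its name although it encodes a binding partner of Rps19 and no ribosomal protein. The 10 genes named as S6 kinases, which share the Rps6k prefix, and pseudogenes were left out.

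Ribosomal proteins surround the ribosomal RNA and are needed in near-equal amounts, and their genes are among the most strongly transcribed housekeeping genes of any cell. Many of their mRNAs begin with a C followed by a run of pyrimidines, the 5′ terminal oligopyrimidine (TOP) motif, through which mTOR signaling tunes their translation. RBPJ is the sequence-specific DNA-binding factor that Notch receptors use to reach their target genes, and it recognizes a short core sequence, TGGGAA.

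The series held 4 samples, all from AMs of WT mice: 2 libraries made with an antibody to RBPJ (replicates 1 and 2) and 2 matching inputs. AMs were recovered by bronchoalveolar lavage and cell sorting, and each aliquot held 200000 cells. According to the methods of the study the mice were C57BL/6J animals of 9 wk. The assay, HT-ChIPmentation, adds sequencing adapters by tagmentation during chromatin immunoprecipitation. Each RBPJ library came as its own peak list, with 106228 peaks in replicate 1 and 47224 in replicate 2, and the inputs entered only through the peak calling of the authors. Whether each library stands for a different animal is not given by the labels, and the read depth behind the lists was not part of the values. Intervals are Wilson 95% intervals, which cover counting error over genes only, and with 1 condition and 2 libraries no test was run.

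Overlapping peaks of both lists were merged into 25454 consensus regions. A gene had a promoter region when a consensus region came within 1 kb of one of its annotated transcription start sites (TSSs). Of the 10 marker genes of AMs, 9 had a promoter region (all but Marco), whereas none of the 6 markers of alveolar type II cells and none of the 6 of lymphocytes had a promoter region. Among the markers of neutrophils 1 of 6 had a promoter region (S100a8), as did 1 of 6 for endothelium (Pecam1). When a region nearest to the gene also counted, the numbers were 10 of 10 for AMs, 0 of 6 for type II cells, 2 of 6 for lymphocytes, 1 of 6 for neutrophils and 3 of 6 for endothelium. Over all protein-coding genes, 33.7% had a promoter region and 40.5% were nearest to a region. The share of all genes with either was not counted.

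Nearly every ribosomal protein gene had an RBPJ region at its promoter. A consensus region was present at 79 of 86 genes (91.9%, 84.1 to 96.0), beside 33.7% of all protein-coding genes. Replicate 1 alone had a peak at 82 of the genes (95.3%, 88.6 to 98.2) against 46.1% of all genes, and replicate 2 had one at 79 (91.9%, 84.1 to 96.0) against 37.5%. When both libraries had to reach a −log10 q of 5, 65 genes remained (75.6%) beside 24.0% of all genes. All 46 core 60S genes had a promoter region (100%, 92.3 to 100), as did 28 of the 31 core 40S genes (90.3%, 75.1 to 96.7). The paralogs differed among themselves, with a region at 4 of 8 (50%, 21.5 to 78.5).

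CpG-rich promoters were common among these genes, and such promoters carried RBPJ regions more often in general. A promoter was called CpG-rich where the observed over expected CpG ratio reached 0.6 and the GC content 50% within 250 bp of a TSS, which held for 78 of the 86 genes (90.7%) and for 54.0% of all genes. Of CpG-rich genes in the whole genome, 53.3% had a promoter region, against 73 of the 78 CpG-rich ribosomal protein genes (93.6%). Among the 8 other ribosomal protein genes, 6 had one. For comparison, 7324 of all 21755 genes had a promoter region, and 6256 of those 7324 were among the 11740 CpG-rich genes. Genes standing alone gave a like share: of 68 ribosomal protein genes with no other protein-coding TSS within 2 kb, 62 had a promoter region (91.2%), beside 28.7% of all such genes.

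Other housekeeping groups lay between the ribosomal protein genes and the genome in the consensus, a gap seen in replicate 2 more than in replicate 1. The mitochondrial ribosomal protein genes, which build the separate ribosome of that organelle, had a consensus region at 57 of 78 promoters (73.1%, 62.3 to 81.7). Values were 77.5% (62.5 to 87.7) for 40 ribosome biogenesis factors, 68.9% (56.4 to 79.1) for 61 translation factors and 67.5% (52.0 to 79.9) for 40 proteasome subunits. In replicate 1 alone, 3 of these groups were level with the ribosomal protein genes, at 94.9% for mitochondrial ribosomal proteins, 97.5% for biogenesis factors and 95% for the proteasome. In replicate 2 the same groups had 79.5%, 85.0% and 70.0%. The differences between the groups were not tested.

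**Figure D1:**
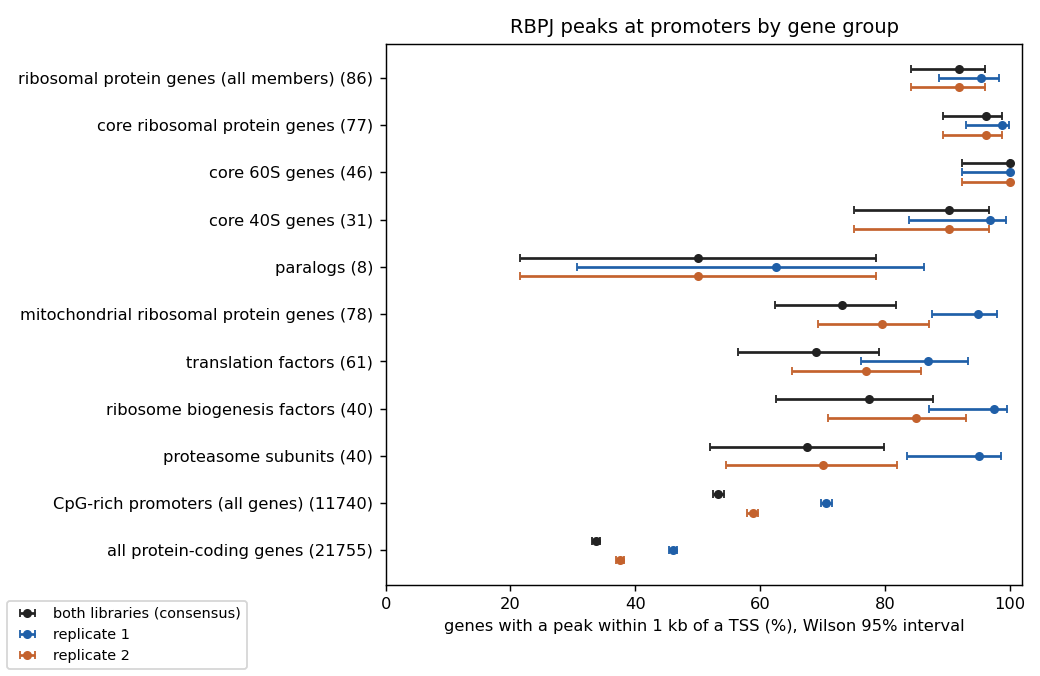
Share of genes with an RBPJ peak within 1 kb of a TSS (x axis, %) in each gene group (y axis, number of genes in brackets), in both libraries together (consensus, black) and in each library's own list (blue and orange). Points are shares and bars are Wilson 95% intervals. The core 60S genes sit at 100% in all 3 counts, while the mitochondrial ribosomal protein genes fall from 94.9% in replicate 1 to 73.1% in the consensus.

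The exceptions were few and mostly copies with restricted use. No peak of either list lay at the promoters of Rpl10l and Rpl39l, which are known from the testis, of Rps27rt, an intronless copy of Rps27, or of Rps4x. Rps4x encodes an X-linked core 40S protein and was the only core gene without any promoter peak. The nearest peak to Rps4x lay 31621 bp from its TSS in replicate 1, with a fold of 3.30, and 162652 bp away in replicate 2, with a fold of 4.35. Fold is the deposited enrichment of a peak at its summit, relative to the background the authors' peak calling estimated.

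Another 3 genes had a promoter peak in replicate 1 only. Rpl3l, a muscle paralog of Rpl3, had a peak of fold 2.60. Rps10 and Rps24, both core 40S genes mutated in Diamond-Blackfan anemia, had peaks of fold 4.31 and 5.07. In replicate 2 the nearest peaks to them lay 11908 bp (Rps10) and 3519 bp (Rps24) away. Replicate 2 had no promoter peak at a ribosomal protein gene that replicate 1 lacked.

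The height of the signal varied widely among the 79 promoters with a region. For each gene the region with the highest lower fold was taken, the lower fold being the smaller of the values of the 2 libraries. The fold ranged from 4.57 to 18.52 in replicate 1 (median 9.13) and from 4.02 to 17.74 in replicate 2 (median 6.69). Over all 7324 genes with a promoter region the medians were 7.10 and 5.71. The lower fold had a median of 6.60 (range 4.02 to 15.47) beside 5.58 for all such genes. Regions were 174 to 3462 bp wide, with a median of 704 bp beside 644 bp. Core 40S genes had median folds of 10.3 and 6.86 and core 60S genes 9.01 and 6.65, a gap smaller than the spread within either subunit.

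**Figure D2:**
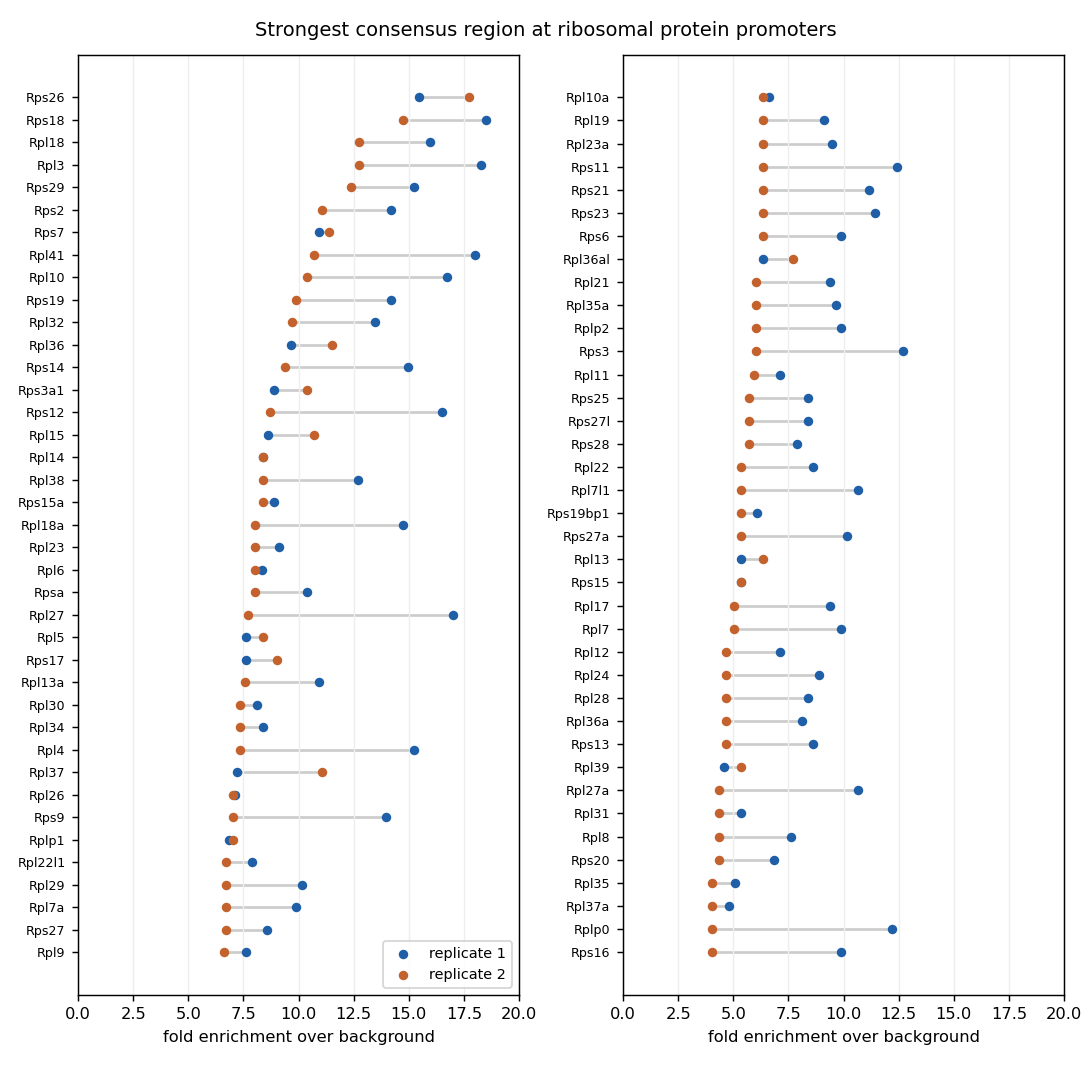
Fold enrichment over background (x axis) of the strongest consensus region at ribosomal protein promoters that had one, in replicate 1 (blue) and replicate 2 (orange), in order of the lower of the 2 values. The line joins the libraries of 1 gene. Rps26 leads with 15.47 and 17.74, and Rplp0 and Rps16 come last although replicate 1 gave them 12.18 and 9.89.

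The strongest promoter was that of Rps26, which encodes a protein at the mRNA exit site of the 40S subunit. Its region, chr10:128626235-128627329, had folds of 15.47 in replicate 1 and 17.74 in replicate 2, with the summit at +17 bp from the TSS. Rps18, a protein of the 40S head, followed with 18.52 and 14.73 (chr17:33954857-33956257). Rpl18, of the 60S subunit, had 15.98 and 12.72 (chr7:45715229-45718333). Both of these regions also covered the TSS of a neighbor, Vps52 and Sphk2.

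Rpl3, which reaches toward the peptidyl transferase center of the 60S subunit, had folds of 18.27 and 12.72 in a region that held no other protein-coding TSS (chr15:80082600-80084320). Rps29 had 15.22 and 12.38 (chr12:69158692-69160308). Its summit lay at -487 bp, and the summits of the libraries stood 430 bp apart. Rps2 had 14.21 and 11.05 with the summit at -9 bp (chr17:24719701-24720308). Rps7, which can bind Mdm2, had 10.91 and 11.38 (chr12:28635575-28636603). Rpl41, the smallest protein of the ribosome, had 18.01 and 10.71, but its region was the widest (chr10:128546232-128549693) and its nearest TSS was that of Zc3h10. The summit of replicate 1 fell at +1281 bp, and the summits of the libraries stood 1468 bp apart, so the 2 folds come from different places.

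At the other end, the lowest 8 became 9 genes through a tie. Rps16 (9.89 and 4.02), Rplp0 (12.18 and 4.02), Rpl37a (4.82 and 4.02) and Rpl35 (5.07 and 4.02, or 7.61 and 4.02 in a tied region) had the lowest fold of replicate 2. A second Rpl37a region, over the TSS, had folds of 7.10 and 3.51 and so the smaller lower fold. Rpl8, Rps20, Rpl31 and Rpl27a all stood at 4.35 in replicate 2, and their folds in replicate 1 were 7.61, 6.85, 5.33 and 10.66. Rpl31 was therefore low in both libraries, whereas Rps16, Rplp0 and Rpl27a were low in replicate 2 only.

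The libraries ordered the genes loosely. Spearman's rho between their folds was 0.49 over the 79 genes and 0.60 over all 7324 genes, a description across genes that share the same 2 libraries. Folds came in steps, with 47 distinct values in replicate 1 and 31 in replicate 2 among these genes. The fold was higher in replicate 1 at 65 genes and in replicate 2 at 14, and over all genes it was higher in replicate 1 at 72.0%.

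To set the libraries on 1 scale, the highest promoter fold of each gene was ranked among all genes with a promoter peak in the same list. The median percentile was 77.3 in replicate 1 and 68.2 in replicate 2. In both lists at once, 56 of the 79 genes with peaks in both (70.9%) were above the 50th percentile, beside 38.7% of the 7792 genes that had a peak in both lists. The top 10% of both lists held 11 of the 79 (13.9%) beside 5.47% of all. For the mitochondrial ribosomal protein genes the median percentiles were 45.7 and 51.1.

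**Figure D3:**
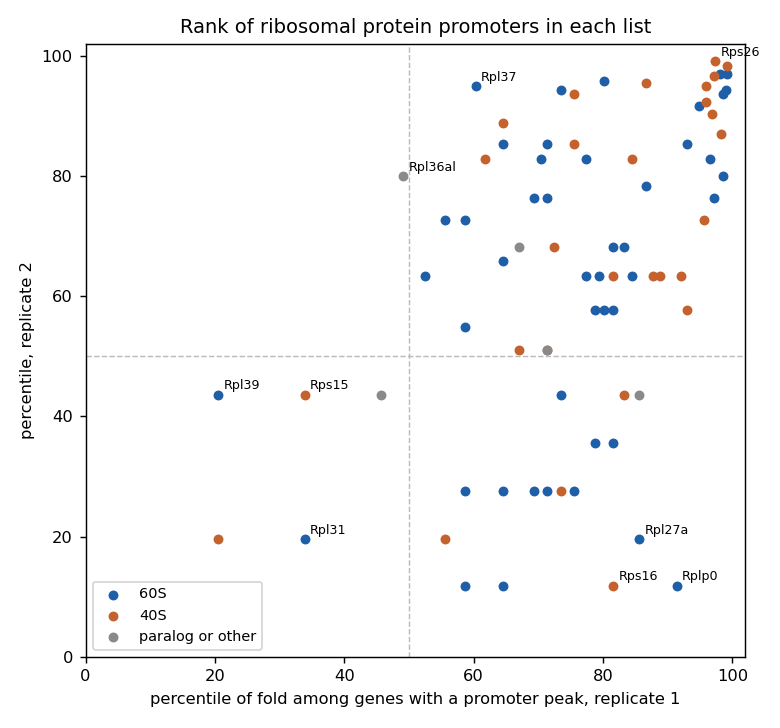
Percentile of each gene's highest promoter fold among all genes with a promoter peak in replicate 1 (x axis) and in replicate 2 (y axis), for ribosomal protein genes with peaks in both lists. Each point is a gene, colored by subunit, and dashed lines mark the 50th percentile. Of the 79 points, 56 lie above both lines, and Rplp0, Rps16 and Rpl27a lie high in replicate 1 and low in replicate 2.

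The stalk proteins, which recruit elongation factors to the ribosome, spanned much of this range. Rplp0, the stalk base, was at the 91.4th percentile in replicate 1 and the 11.8th in replicate 2. Rplp1 had folds of 6.85 and 7.03 (chr9:61914454-61915302) and Rplp2 9.89 and 6.02 (chr7:141446669-141447647). Rpsa, the 40S protein also known as the laminin receptor, had 10.40 and 8.03 (chr9:120127607-120127994).

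Some ribosomal proteins have known roles outside translation. Rpl5 and Rpl11, which bind Mdm2 and stabilize p53 when ribosome assembly fails, had folds of 7.61 and 8.37 (Rpl5, chr5:107900403-107900707) and of 7.10 and 5.94 (Rpl11, chr4:136052772-136053787). Rps6, the substrate of the S6 kinases, had 9.89 and 6.36 (chr4:86857122-86858039). Rps3, which lines the mRNA entry channel, had 12.69 and 6.02 (chr7:99482556-99484301). Rpl13a, which in myeloid cells can leave the ribosome to silence inflammatory mRNAs, had 10.91 and 7.59 (chr7:45127416-45129258). All of these had a higher fold in replicate 1 except Rpl5.

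Rps19, the gene most often mutated in Diamond-Blackfan anemia, had 14.21 and 9.90 (chr7:24883661-24884818). Rps14, the ribosomal gene of the human 5q- syndrome, had 14.97 and 9.37. Rps27a, made as a fusion with ubiquitin, had 10.15 and 5.36 (chr11:29547857-29548478). Rps19 and Rps14 thus stood in the upper part of both lists, at or above the 90.3rd percentile, and Rps27a was at the 43.6th in replicate 2.

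Genes of the ribosome that the symbol rule misses carried regions as well. Fau, a fusion with the 40S protein S30, had folds of 4.82 and 4.95, at the low end of the range of the ribosomal protein genes. Rack1, the scaffold on the 40S head, had 7.36 and 5.69.

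Among the 4 paralogs with a promoter region, 3 had folds near those of their parents. Rpl7l1 had folds of 10.66 and 5.36 beside 9.89 and 5.02 at Rpl7. Rpl22l1 had 7.87 and 6.69 beside 8.63 and 5.36 at Rpl22. Rps27l, a target of p53, had 8.37 and 5.69 beside 8.56 and 6.69 at Rps27. In these 3 pairs the members differed by less than the libraries of either gene, except at replicate 2 of Rpl22 and Rpl22l1, where the paralog was higher.

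Rpl36al had 6.34 and 7.70 beside 8.12 and 4.69 at Rpl36a, so each library put another gene of the pair first. The regions of Rpl36al and Rps27 were nearest to other genes, Mgat2 and Rab13. In contrast, Rpl3l, Rpl10l and Rpl39l had no consensus region while Rpl3, Rpl10 (16.75 and 10.38) and Rpl39 (4.57 and 5.36) did. Of the 4 X-linked genes, Rpl10 (chrX:74269816-74271731), which joins the 60S subunit late in its assembly, was high in both libraries. Rpl36a and Rpl39 were in the lower part, and Rps4x had no peak.

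RBPJ summits sat close to the start sites of these genes. The median position of the summit was -12 bp from the nearest TSS of the gene, beside -70 bp over all genes with a promoter region. The subunits differed, with -34.5 bp for core 60S genes and -4 bp for core 40S genes. Mitochondrial ribosomal proteins and biogenesis factors had -35 bp, translation factors -35.5 bp and the proteasome -126 bp, so the 60S value was near those of 3 comparison groups. The summit lay within 100 bp of a TSS at 62 of the 79 genes (78.5%) and at 36.0% of all such genes, and CpG-rich genes gave 36.3%. In the comparison groups these shares were 56.1% for mitochondrial ribosomal proteins, 51.6% for biogenesis factors, 50% for translation factors and 33.3% for the proteasome. A consensus region covered an annotated TSS of the gene at 78 of the 79 genes (98.7%) and at 77.3% of all genes with a promoter region. The summits of the 2 libraries were within 100 bp of each other at 58 genes, with a median gap of 53 bp beside 85 bp for all genes.

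**Figure D4:**
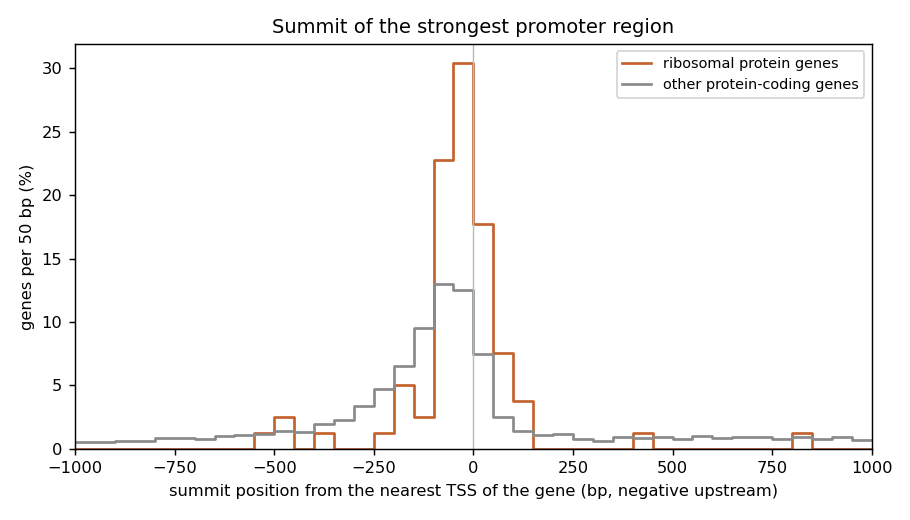
Position of the summit of the strongest promoter region relative to the nearest TSS of the gene (x axis, bp, negative upstream), as percent of genes in bins of 50 bp (y axis), for ribosomal protein genes (orange) and all other protein-coding genes with a promoter region (gray). The ribosomal protein genes pile up around the TSS, where 78.5% of their summits lie within 100 bp, and the other genes spread further upstream.

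Summits far from a TSS occurred in both subunits. Rpl41 had its summit at +1281 bp, Rpl37a at +847 bp, Rpl13 at -502 bp and Rps29 at -487 bp. The strongest region did not reach the nearest TSS at Rplp2, Rpl13 and Rpl37a. A second region at Rpl37a (chr1:72710792-72711412, folds 7.10 and 3.51) did cover the TSS, with its summit at -49 bp. At Rpl35 the choice rested on a tie: a region with its summit at +422 bp (folds 5.07 and 4.02) did not reach the TSS, and a tied one with its summit at -204 bp (chr2:39005465-39006294, 7.61 and 4.02) did. The values of Rpl35 in the summaries and plots of folds, summits and motifs come from the former.

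The start sites carried the sequence these mRNAs are known for more often than those of all genes, though the exact form was at a minority. A run of at least 8 pyrimidines within 10 bp of a TSS was present at 47 of 86 genes (54.7%, 44.2 to 64.7), beside 21.7% of all genes and 16.7% of mitochondrial ribosomal protein genes. A C exactly at an annotated TSS followed by 4 more pyrimidines was found at 21 genes (24.4%, 16.6 to 34.5) beside 4.26% of all genes. Of these 21 genes, 18 had an RBPJ promoter region, with a median lower fold of 7.29 (range 4.02 to 14.73) beside 6.36 (4.02 to 15.47) at the 61 other occupied genes, so the ranges overlapped almost fully. Start sites from TSS annotation can be off by several bases. The following windows reach 20 bases either side of an annotated TSS in mm10, on the strand of the gene, with the pyrimidine run in capitals. Rpl31 and Rpl37a had a long run and a low fold in replicate 2, and Rps4x had neither a peak nor a long run.
Rpl31 (chr1:39367822-39367862, plus strand): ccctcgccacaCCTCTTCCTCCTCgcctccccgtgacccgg
Rpl37a (chr1:72711270-72711310, plus strand): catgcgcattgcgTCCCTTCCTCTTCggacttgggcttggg
Rps4x (chrX:102189374-102189414, minus strand): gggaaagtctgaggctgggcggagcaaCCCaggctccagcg

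The RBPJ core sequence was no more common at these summits than elsewhere. TGGGAA, on either strand within 100 bp of the summit, was found at 15 of 79 genes (19.0%, 11.9 to 29.0) beside 18.2% of all 7324 genes with a promoter region. Genes with and without it had median lower folds of 6.69 and 6.48. The longer forms CGTGGGAA or TGTGGGAA, which contain the core, were found at 5 genes (6.33%, 2.73 to 14.0) beside 2.50% of all. These were Rpl22l1, Rpl23, Rpl36a, Rpl39 and Rps2, with lower folds from 4.57 at Rpl39 to 11.05 at Rps2. Each carried the CGTGGGAA form, given in capitals on the strand of the gene with 11 bases on either side, and TTCCCACG is its reverse complement. The windows show how far from the TSS the match began, which was -95 bp at Rpl23, -34 bp at Rpl36a, +45 bp at Rpl22l1, +63 bp at Rps2 and +100 bp at Rpl39.
Rpl23 (chr11:97782514-97782543, minus strand): taagcgcagctTTCCCACGcagaacggtcc
Rpl36a (chrX:134585609-134585638, plus strand): atggtcgccgtTTCCCACGgctctgaggaa
Rpl22l1 (chr3:28805503-28805532, plus strand): agcccgttctcTTCCCACGgctgcagctca
Rps2 (chr17:24720162-24720191, plus strand): gcggcctgggcCGTGGGAAtccgtggacat
Rpl39 (chrX:37085284-37085313, minus strand): accggtttgggTTCCCACGgccccatggga

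Among 14 motifs counted in the same windows, the ETS sequence CCGGAAG had the widest gap to all genes in percentage points around the summit. It was present at 24 of 79 genes (30.4%, 21.3 to 41.2) beside 16.2% of all genes and 17.4% of CpG-rich ones. Around the TSS in place of the summit the shares were 29.1% and 19.7%. Genes with it had a median lower fold of 7.12 and genes without it 6.36. Rps26 and Rps18, the strongest promoters, both held it, and Rps26 also held the RBPJ core, starting at +1 bp from its TSS. Windows reaching 50 bases either side of the summit are given for Rps18 and Rps6 on the strand of the gene, with CCGGAAG in capitals, because they place the match within 50 bp of the summit.
Rps18 (chr17:33955703-33955803, minus strand): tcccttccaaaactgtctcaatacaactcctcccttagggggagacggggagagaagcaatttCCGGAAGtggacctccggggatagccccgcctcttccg
Rps6 (chr4:86857384-86857484, minus strand): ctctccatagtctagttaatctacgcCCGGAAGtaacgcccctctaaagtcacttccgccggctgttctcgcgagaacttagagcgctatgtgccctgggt

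The overlapping left (5′) and right (3′) ends of the YY1 site were counted apart. ATGGCGG was present at 11 genes (13.9%, 7.96 to 23.2) beside 4.81% of all, and AAGATGG at 7 (8.86%, 4.36 to 17.2) beside 5.23%. Around the TSS the shares were 20.3% beside 10.1% for ATGGCGG and 12.7% beside 6.95% for AAGATGG, and there the gap of ATGGCGG was wider than that of ETS. The forms share the letters ATGG, and a match can be the translation start itself. At 3 of the 11 genes (Rpl11, Rpl27a and Rpl7l1) and at 4 of the 7 (Rpl37, Rpl7a, Rpl7l1 and Rps15) a match lay over an annotated start codon, beside 31.0% and 22.2% of all genes with the respective match.

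CCAAT, the NFY box, was less frequent than in other promoters, at 16 genes (20.3%, 12.9 to 30.4) beside 34.3% of all. Around the TSS these shares were 22.8% and 30.3%. TATAAA was present at 11 genes (13.9%, 7.96 to 23.2) beside 8.15%, and around the TSS at 13.9% beside 3.88%. GGGCGG, the SP and KLF box, was present at 41.8% beside 37.1%, but around the TSS the order turned, with 51.9% beside 59.9%. The intervals of the remaining motifs all held the share of all genes. These were TGACGTCA (CRE, 5.06% beside 2.58%), CACGTG (E-box, 10.1% beside 7.22%), GCATGCGC (NRF1, 3.80% beside 2.61%), ACTACA (ZNF143, 12.7% beside 11.3%), GAGGAAGT (PU.1, 2.53% beside 3.80%) and TGANTCA (AP-1, 5.06% beside 5.26%). All motifs were searched on both strands, and a match is a run of letters, not a measured binding site.

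**Figure D5:**
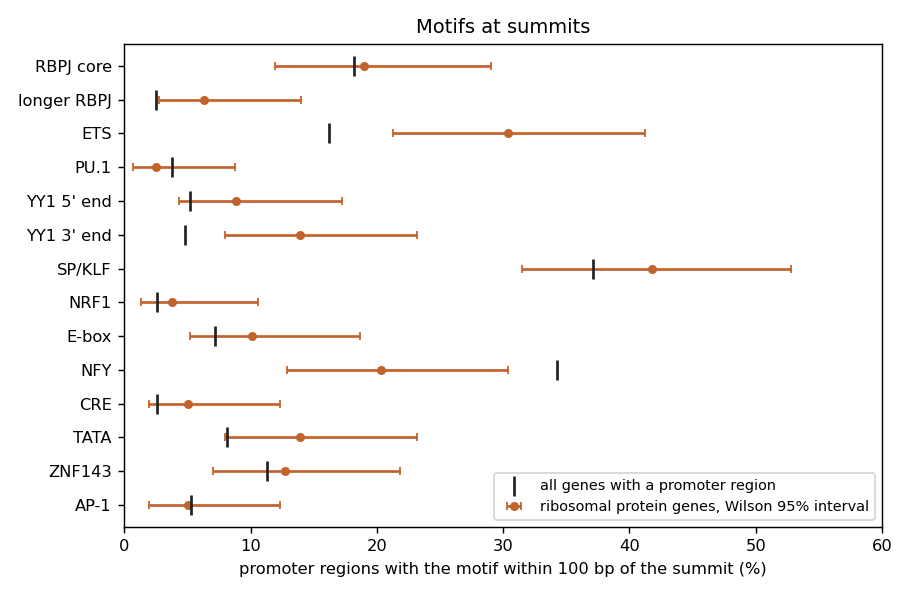
Share of promoter regions with each motif within 100 bp of the summit (x axis, %) for the 79 occupied ribosomal protein genes (orange points, bars are Wilson 95% intervals) and for all 7324 genes with a promoter region (black ticks). The ticks for ETS and the YY1 3' end and, narrowly, for the longer RBPJ form lie below the intervals, that for NFY lies above, and that for the RBPJ core falls inside.

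Several regions could not be assigned to the ribosomal protein gene alone. At 14 genes the region also covered another protein-coding TSS, and at 9 the TSS nearest to the middle of the region was that of another gene. The same was not counted over all genes with a promoter region, so whether these shares are unusual is not known. The genes of this kind with the highest lower fold were Rps18 (with Vps52), Rpl18 (Sphk2), Rpl41 (Zc3h10), Rpl15 (Nkiras1, folds 8.63 and 10.71) and Rpl4 (Zwilch, 15.22 and 7.36). Median lower folds were 6.65 for these 14 genes and 6.36 for the other 65, so shared promoters did not stand apart in height.

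Counting instead by the nearest protein-coding TSS, 72 of the 86 genes had at least 1 consensus region (83.7%, 74.5 to 90), beside 40.5% of all genes. They held 138 regions, 94 at the promoter and 44 beyond it, and 41 genes had a single region. These splits were not counted over all genes. The 44 distant regions belonged to 17 genes and had a median lower fold of 4.57. The strongest was assigned to Rplp1 from +212061 bp (chr9:61701873-61702903), with folds of 12.18 and 12.88, above those at the Rplp1 promoter itself.

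Next came Rps9 at +2960 bp (chr7:3706272-3707455, 10.15 and 10.38) and Rpl14 at +5814 bp (chr9:120577122-120579308, 8.88 and 12.05). Rpl5 followed at +22494 bp (chr5:107922383-107923713, 13.70 and 8.37). Taking 1 region a gene, the last of the top 5 was Rps14 at -2256 bp (9.89 and 7.03). That distance is from an annotated start at chr18:60747098, whereas the strongest Rps14 promoter region lay at another start, chr18:60774596. None of these 5 regions had its summit inside the gene it was nearest to, although the Rps9 region overlapped the end of Rps9 (chr7:3706897). Nearness does not show which gene a region acts on.

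Introns of ribosomal protein genes often hold small nucleolar RNA (snoRNA) genes, whose RNAs guide modification of ribosomal RNA. In total 30 of the 86 genes hosted 58 annotated snoRNA genes. All 30 hosts had a promoter region, beside 91.9% of all 86 genes. Their median lower fold was 6.95 (4.02 to 12.72) and that of the 49 other occupied genes 6.36 (4.02 to 15.47), a difference smaller than the spread among genes.

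Pseudogenes of ribosomal proteins, mostly processed copies that lack the promoter, did not share the pattern. Of 294 annotated pseudogenes with such names, 4 had a consensus region within 1 kb of their start (1.36%, 0.530 to 3.45), beside 1.64% of the other pseudogenes. Replicate 1 had a peak at 18 (6.12%, 3.91 to 9.47) beside 4.03% of the other pseudogenes. Replicate 2 had one at 6 (2.04%, 0.939 to 4.38) beside 2.34%. The 4 were Rpl21-ps1 (folds 11.67 and 9.37), Rpl31-ps7 (19.79 and 8.03), Rps15a-ps5 (4.06 and 4.76) and Rpl30-ps3 (3.55 and 4.35). Only at Rpl21-ps1 did the region overlap the record. Copies in the genome bear on how well reads could be placed, so the 150 bp either side of each start site were aligned to mm10. At 84 of the 86 genes no copy of at least 100 bp with 95% identity was found elsewhere, and Rps27rt and Rplp1 were the exceptions.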

How the data were processed

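RBPJ HT-ChIPmentation of AMs gave 2 peak lists, 1 per library. According to the methods and the submitters' processing notes, the authors demultiplexed reads with bcl2fastq (2.20.0.422) and CASAVA, trimmed them with Cutadapt, aligned them to mm10 with Bowtie2, kept properly paired, non-duplicate reads of mapping quality above 30 with SAMtools, and called peaks in each library with MACS3 against input at q 0.05. The deposited columns hold the fold enrichment at the summit (a ratio over background), the −log10 p and −log10 q of each peak and a display score. The score and −log10 p were not used. Read depth was not examined here, and having 2 libraries is what limits precision. A filter on problematic regions is not given in the sources used here, and none was applied.

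Gene models were the basic protein-coding transcripts of GENCODE M21 on chromosomes 1 to 19 and X, where peaks lay, and sequence came from GRCm38, the assembly of mm10. Coordinates count from 1. Peaks of both lists overlapping by at least 1 bp were merged into consensus regions. The summit of a region was that of the peak with the higher fold, and folds were compared between lists only as ranks, medians or the lower value. Python 3.11.15, pandas 2.3.3, SciPy 1.17.1, pysam 0.24.0 and blastn 2.17.0 were used, and the interval code was tested on simulated data.

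The rule for named genes took the 8 genes with the highest and the 8 with the lowest lower fold, genes without a promoter region, paralog pairs, stalk and X-linked genes, a fixed list with roles outside translation, 5 genes with strong distant regions and 5 with shared promoters. A tie made the lowest group 9 genes. Genes far from their summit and those with the longer RBPJ motif were named after their values were seen. The genes, lists and motifs were chosen with earlier results of these data known, so their counts are descriptions. Alternatives covered the consensus rule, the promoter window, the transcripts, the gene list, the rank measure, the motif window and each library left out. Some genes that the rule names are not reported here.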

Additional observations from a re-analysis of the deposited data

How the results depend on the processing

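The promoter count was 62 to 82 genes under every alternative (main 79), the nearest-gene count 57 to 83 (main 72) and the median lower fold 6.48 to 7.03 (main 6.60). Of 43 alternatives of the principal values, 36 stayed within the set limits, 1.5 times for counts and the spread between libraries for the others. These limits were wide. The spread for the lower fold was 1.72, more than the gap between 6.60 and the 5.58 of all genes, and 79 of 86 genes could not rise 1.5 times. The median summit position of -12 bp moved to -24 bp at a −log10 q of 5 in both lists and to -23 bp with the comprehensive transcripts, where all genes gave -71 and -66 bp, and it ranged from -27.5 to -27 bp with either library left out, beside -85 bp and -54 bp for all genes. The median percentile rose from 72.5 (mean of both lists) to 90.7 when ranked against all peaks in place of promoter peaks. The pseudogene count of 4 ranged from 6 to 18 with 1 library left out, 18 being replicate 1 alone, and was 1 when the region had to overlap the record.

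Of 70 alternatives for motif shares, 12 left the interval of the main value. With 50 bp either side of the summit the RBPJ core fell to 8.86% and the longer form to 1.27%, and ATGGCGG to 2.53%. A smaller window holds fewer matches by construction, and whether that accounts for the whole fall was not tested. Limiting the count to genes with no other protein-coding TSS within 2 kb was chosen after the data were seen. Leaving out 1 library leaves a single list with no replicate. No paired analysis was possible because the results come from no test and each RBPJ library had 1 file of its own. At the genes without a region no peak was detected at a depth that was not examined here, which does not show that RBPJ is absent there.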

Other observations

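The genes named as S6 kinases, which share a symbol prefix with Rps6, had a consensus promoter region at 6 of 10 genes (60%, Wilson 95% interval 31.3 to 83.2). This stood beside 33.7% of all genes and 53.3% of CpG-rich ones, both inside the interval, and 9 of the 10 were CpG-rich. Their median lower fold was 4.12, and 1 of the 6 summits lay within 100 bp of a TSS. None of the 6 protein-coding genes with a pseudogene-style (-ps) symbol had a promoter region.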
